A study of Mus musculus with 4 samples.

Results

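The 10 amino acid transporter genes described here were *Slc7a5*, *Slc3a2*, *Slc43a1*, *Slc1a5*, *Slc1a4*, *Slc38a1*, *Slc38a2*, *Slc7a1*, *Slc7a6* and *Slc7a11*. They were chosen by symbol, and all 10 were found among the 24369 genes listed and among the 14143 genes that passed the filter on low counts. The RNA came from naive CD4 T cells of the spleen of wild-type C57BL/6 mice, whose age and sex are not given in the sources used here. The cells were activated without polarizing cytokines on anti-CD3 bound to plates, with anti-CD28 in solution and human recombinant IL-2, where the sample labels name a recombinant human anti-CD28 in place of IL-2. On day 2 they were transduced with a retrovirus made from MSCV-IRES-eGFP, the empty vector (EV RV), or from MSCV-Tox-IRES-eGFP (Tox RV). On day 5 both groups were restimulated during 5 h by biotinylated anti-CD3 plus streptavidin, which the study's results section gives as anti-CD3 and anti-CD28, and CD4 cells positive for GFP were sorted. Each group had 2 libraries, from 2 mice, so that both groups shared the activation, the viral backbone, GFP and the sort. The added Tox, a DNA-binding protein of the HMG-box family, was driven by the retroviral vector and not by its own gene.

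Activated T cells take up large amounts of amino acids, and the transporters that carry them are induced by signals from the T cell receptor. *Slc7a5* encodes the light chain LAT1, which imports leucine and other large neutral amino acids only when paired with the heavy chain CD98, the product of *Slc3a2*, and leucine in turn activates the kinase complex mTORC1. Small neutral amino acids enter through ASCT2 (*Slc1a5*), ASCT1 (*Slc1a4*) and the sodium-coupled carriers SNAT1 (*Slc38a1*) and SNAT2 (*Slc38a2*). Arginine and lysine enter through CAT1 (*Slc7a1*), and cystine through xCT (*Slc7a11*). The question for these genes was whether their mRNA differed between Tox RV and EV RV cells.

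The libraries held 46989997 to 74548723 expected counts, the unnormalized fragment estimates of the program RSEM. *Tox* was at 5.73 to 11.7 CPM (counts relative to library size, scaled by TMM) with EV RV and at 99.9 to 121 CPM with Tox RV, as the labels give it. EV RV replicate 1 stood apart: the 45S pre-rRNA *Rn45s* took 24.7% of its counts against 7.14% to 11.97% in the other libraries, and it lay at -53.8 on the first principal component (58.0% of the variance) with the others at 5.70 to 25.8. The CD4 T cell markers summed to 2389 and 1660 CPM in EV RV against 2268 and 2042 CPM in Tox RV, so the groups overlapped. *Cd4* was at 324 CPM or more in every library. For 3 of the 7 (*Cd3d*, *Cd3g* and *Cd4*) both Tox RV libraries were the higher, which held for 18.6% of all tested genes. For 0 of the 7 were both lower, which held for 17.4% of all tested genes. Markers of CD8 T cells summed to 3.88 to 4.77 CPM, of B cells to 1.16 to 1.62 CPM with *Ms4a1* at 0, and of myeloid cells to 0.959 to 1.45 CPM. The NK cell markers summed to 52.0 and 12.6 CPM in EV RV against 28.1 and 7.04 CPM in Tox RV, with *Ncr1* at 0. The erythroid markers summed to 5.07 and 3.80 CPM in EV RV and to 2.81 and 2.68 CPM in Tox RV. The part of these markers in the values that follow was not tested. In bulk RNA, fewer cells of a type and less RNA per cell cannot be told apart.

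Promoter sequence from RefSeq (build GRCm38.p6) was at hand for 7 of the 10 genes, all but *Slc7a5*, *Slc1a5* and *Slc38a1*. A window from 250 bases before to 50 bases after each start was searched on both strands for the letters of the amino acid response element, TGATGNAA, which ATF4 binds with C/EBP proteins when amino acids are scarce, for the E-box CACGTG, which MYC and MAX bind, and for the antioxidant response core TGACNNNGC, which NRF2 binds. The motifs were chosen after the values of the genes had been seen. The 3 windows that held the response element or the E-box are shown from 100 bases before to 20 bases after the start, 5′ to 3′ along the gene, with those letters in capitals, because *Atf4*, *Myc* and *Mycn* are described below. The windows are chr3:50443594-50443713 on the minus strand for *Slc7a11*, chr11:20332694-20332813 on the minus strand for *Slc1a4* and chr2:84840223-84840342 on the plus strand for *Slc43a1*.
Slc7a11: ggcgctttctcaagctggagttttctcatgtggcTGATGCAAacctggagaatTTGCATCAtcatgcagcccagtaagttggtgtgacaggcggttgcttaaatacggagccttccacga
Slc1a4: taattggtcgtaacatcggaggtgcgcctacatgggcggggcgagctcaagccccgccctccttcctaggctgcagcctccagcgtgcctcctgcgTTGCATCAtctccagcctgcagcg
Slc43a1: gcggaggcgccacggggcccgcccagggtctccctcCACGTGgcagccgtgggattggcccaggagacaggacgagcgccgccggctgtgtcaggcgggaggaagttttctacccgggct
*Slc7a11* held the response element at positions -66 to -59 and again, on the other strand, at -47 to -40. *Slc1a4* held it across its start, at -4 to 4. Of 32851 windows of this length in the genome, 3.97% held the response element, 7.15% the E-box and 12.4% the antioxidant core. The core lay in the windows of *Slc43a1*, *Slc7a1*, *Slc7a6* and *Slc38a2*. None of the 3 motifs was in the *Slc3a2* window. The 308 tested genes with the response element had a median log2 fold change, Tox RV over EV RV, of -0.03, the 1195 with the E-box 0.04, the 1796 with the antioxidant core 0.02, and the 10628 tested genes with a promoter entry a median of 0.0077. A match gives the letters present and is not evidence of binding.

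The 10 genes spanned a wide range of levels. Levels of different genes are given per length, as TPM, RSEM's share of all transcripts. *Slc1a5* was the most abundant, at 224 and 218 TPM in EV RV against 232 and 200.2 TPM in Tox RV, and ranked 475 among the 14143 tested genes. *Slc3a2* came next at 89.1 to 122 TPM over the 4 libraries and *Slc7a5* at 70.4 to 105 TPM. These ranges overlapped, although *Slc3a2* was above *Slc7a5* in all 4 libraries. *Slc38a1* (58.9 to 61.2 TPM), *Slc38a2* (46.4 to 62.7 TPM), *Slc7a1* (33.0 to 56.3 TPM) and *Slc7a6* (31.8 to 40.6 TPM) followed, each overlapping its neighbour in this order. A gap separated *Slc7a6* from *Slc1a4* (6.38 to 10.7 TPM), with a ratio of mean levels of 4.36. *Slc43a1* (1.08 to 3.72 TPM) and *Slc7a11* (1.22 to 2.69 TPM) were the lowest, overlapped each other, and ranked 10360 and 10724.

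**Figure D1:**
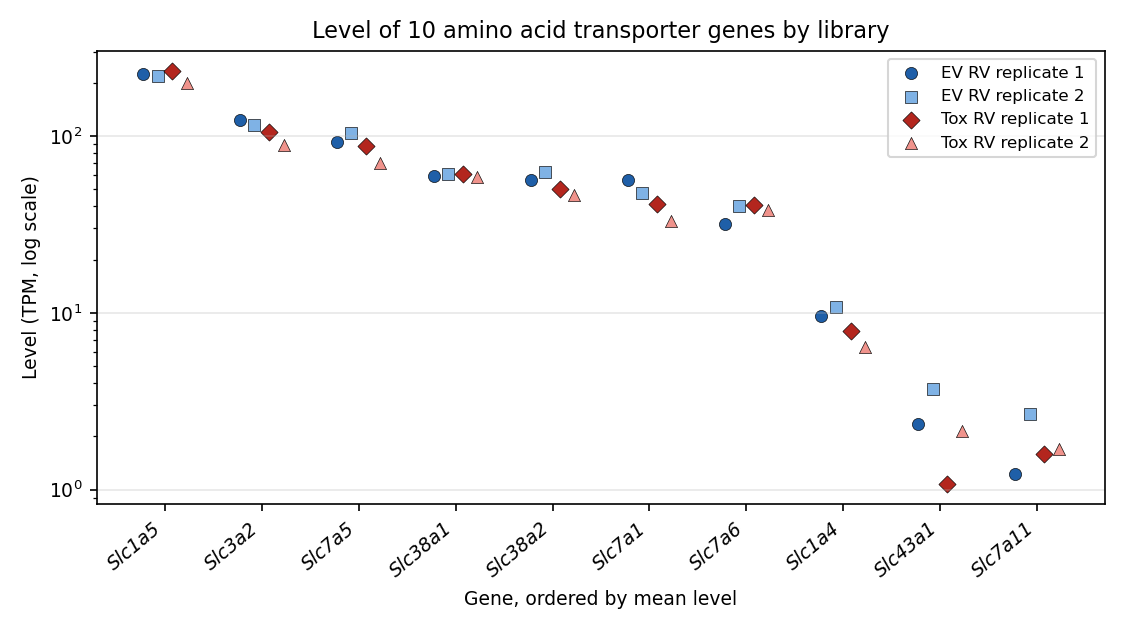
Level of each of the 10 transporter genes in TPM (log scale) in the 4 libraries, with genes ordered by mean level and 1 symbol per library. *Slc1a5* is at 200.2 TPM or more in every library, while *Slc43a1* and *Slc7a11* stay at or below 3.72 TPM.

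Between Tox RV and EV RV, 0 of the 10 transporters passed an adjusted p of 0.05 in the quasi-likelihood test of edgeR (Benjamini-Hochberg adjustment over all genes), as did 0.0% of the 14143 genes tested. *Tox* itself was not called by that test (log2 fold change 3.68, SE 0.38, edgeR adjusted p = 0.490), while DESeq2 called it (DESeq2 adjusted p = 2.94e-24). A transporter that was not called is therefore not shown to be unchanged. None of the 10 had an unadjusted p below 0.05, against 3.62% of all genes. That count was 1 (*Slc43a1*) with no filter on low counts in edgeR, where 996 of 19286 genes had such a p. It was also 1 (*Slc1a4*) in each limma fit on log2 TPM. There 481 of 11534 genes had such a p with log2(TPM + 1) and 512 with log2(TPM + 0.1). The count for the 10 was higher without either EV RV replicate, in fits that leave 1 library in that group. DESeq2 called 0 of the 10 against 0.17% of the genes to which it gave an adjusted p. The fitted log2 fold change was below 0 for 7 of the 10 and above 0 for 3, with a median of -0.21 where the median of all tested genes was 0.0036. The median of the 10 was -0.33 without EV RV replicate 1, -0.10 without EV RV replicate 2, -0.31 without Tox RV replicate 1 and -0.12 without Tox RV replicate 2. For 5 genes, *Slc3a2*, *Slc43a1*, *Slc1a4*, *Slc38a2* and *Slc7a1*, the CPM of Tox RV was below that of EV RV for every pair of libraries, which held for 17.4% of all tested genes. For 0 of the 10 was it above for every pair, which held for 18.6% of all tested genes. The count of 5 depended on the scaling. The shares of all genes given beside it are for TMM only and were not computed for the other scalings. It was 6 in TPM, where *Slc7a5* joined the others below, and 4 with median-of-ratios scaling, where *Slc43a1* dropped out. With library totals in place of TMM, which moved the median of all genes to 0.12, 1 gene (*Slc7a1*) lay below and 2 (*Slc38a1* and *Slc7a6*) lay above, and the median of the 10 was -0.11. On log2(TPM + 1) with limma, 9 of the 10 were below 0. The median of the 10 was -0.29 in that fit, where the median of all genes was -0.043.

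**Figure D2:**
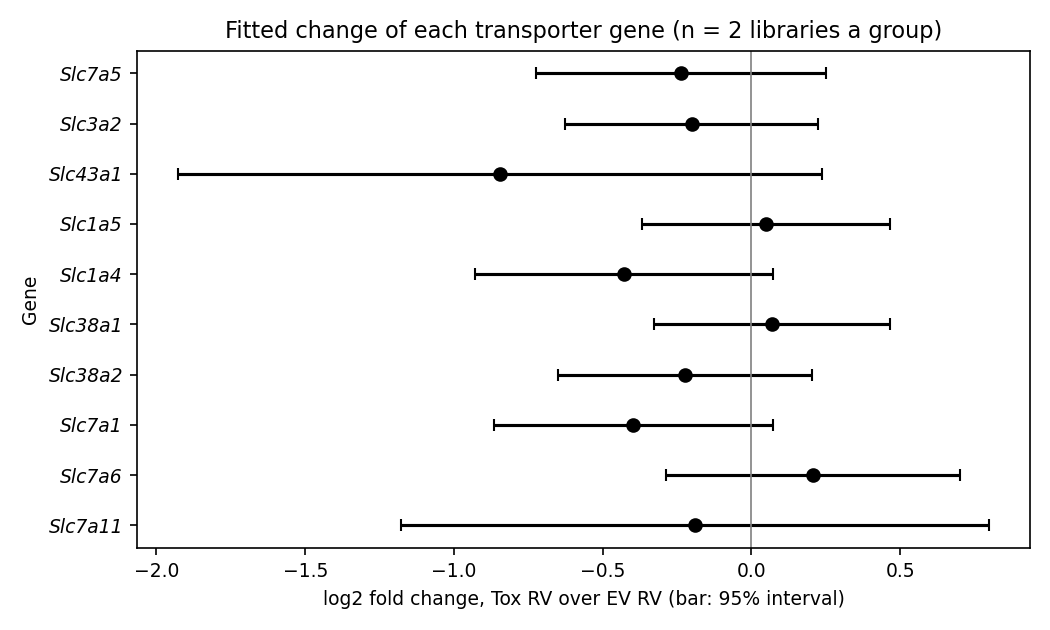
Fitted log2 fold change of each transporter gene, Tox RV over EV RV, with its 95% interval from the quasi-likelihood fit (2 libraries per group). All 10 intervals cross 0, and the widest belong to *Slc43a1* and *Slc7a11*.

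Values of a group are given for replicate 1 and then replicate 2. Of the heterodimer of CD98 and its light chains, *Slc7a5* (chr8:121881150-121907694, minus strand, in mm10 with the GENCODE vM21 annotation, as for the genes that follow) was at 187 and 221 CPM in EV RV against 193 and 154 CPM in Tox RV. The groups overlapped in CPM, with Tox RV replicate 1 between the EV RV libraries and Tox RV replicate 2 lowest. In TPM they did not overlap, at 92.8 and 105 in EV RV against 88.2 and 70.4 in Tox RV. The log2 fold change was -0.24 (SE 0.20, 95% interval -0.72 to 0.25, edgeR adjusted p = 0.897). *Slc3a2* (chr19:8706882-8723369, minus strand) was at 178 and 175 CPM in EV RV against 167 and 141 CPM in Tox RV. Both Tox RV libraries were lower, although the 2 of them differed from each other by 0.25 on the log2 scale, more than the fitted difference between the groups of -0.20 (SE 0.17, edgeR adjusted p = 0.897). *Slc7a6* (chr8:106168857-106198706, plus strand), whose product y+LAT2 pairs with CD98 to exchange arginine for glutamine, was at 68.2 and 90.8 CPM in EV RV against 94.5 and 89.2 CPM in Tox RV. EV RV replicate 1 stood below the other libraries, which lay close together. The log2 fold change of *Slc7a6* was 0.21 (SE 0.20, edgeR adjusted p = 0.897) and was 0.01 without EV RV replicate 1. The other light chains, y+LAT1 (*Slc7a7*) and LAT2 (*Slc7a8*), were at most 1.21 CPM in any library.

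*Slc43a1* (chr2:84838850-84863594, plus strand) encodes LAT3, which carries branched-chain amino acids and phenylalanine without a heavy chain. It was at 3.25 and 5.47 CPM in EV RV (137 and 416 counts) and at 1.64 and 3.24 CPM in Tox RV (104 and 168 counts). The groups nearly touched: the higher Tox RV library was just under the lower EV RV library, and replicates of each group differed by 0.75 or more on the log2 scale. With median-of-ratios scaling the groups overlapped. Its log2 fold change of -0.84 was the lowest of the 10, with the largest SE (0.44, 95% interval -1.93 to 0.24, edgeR adjusted p = 0.897). It was -0.41 without EV RV replicate 2, -0.44 without Tox RV replicate 1 and -1.41 without Tox RV replicate 2.

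The exchangers of small neutral amino acids differed from each other in their values. *Slc1a5* (chr7:16781340-16798274, plus strand) was at 350.3 and 359 CPM in EV RV against 394 and 340 CPM in Tox RV, so the EV RV libraries lay between the Tox RV libraries. Its log2 fold change was 0.05 (SE 0.17, 95% interval -0.37 to 0.46, edgeR adjusted p = 0.962), -0.069 without Tox RV replicate 1 and -0.038 on log2(TPM + 1) with limma. *Slc1a4* (chr11:20302180-20332713, minus strand), whose product also carries serine, was at 21.7 and 25.5 CPM in EV RV against 19.4 and 15.7 CPM in Tox RV. Each Tox RV library was below each EV RV library. Its log2 fold change came to -0.43 (SE 0.20, 95% interval -0.93 to 0.07, edgeR adjusted p = 0.897), with an unadjusted p of 0.0806 from edgeR's quasi-likelihood fit that was the smallest among the 10.

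The sodium-coupled carriers lie side by side on chromosome 15. *Slc38a1* (chr15:96571418-96642913, minus strand) was at 254 and 274 CPM in EV RV against 281 and 272 CPM in Tox RV, and the groups overlapped in a narrow band. Its log2 fold change was 0.07 (SE 0.16, 95% interval -0.33 to 0.47, edgeR adjusted p = 0.942), and -0.0072 on log2(TPM + 1) with limma. *Slc38a2* (chr15:96687392-96699730, minus strand), which is induced when amino acids run short, was at 152 and 178 CPM in EV RV against 146 and 136 CPM in Tox RV. Both Tox RV libraries were lower, and the log2 fold change was -0.22 (SE 0.17, edgeR adjusted p = 0.897).

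*Slc7a1* (chr5:148327410-148399904, minus strand), the main carrier of arginine and lysine in this set, was at 237 and 210.3 CPM in EV RV against 188 and 151 CPM in Tox RV. It was the gene whose Tox RV libraries stayed below its EV RV libraries under every scaling tried, that is TMM, median-of-ratios, library totals and TPM. The log2 fold change was -0.40 (SE 0.19, 95% interval -0.86 to 0.07, edgeR adjusted p = 0.897), and it ranged from -0.57 to -0.24 when each library was left out in turn.

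*Slc7a11* (chr3:49892526-50443614, minus strand) exchanges glutamate for cystine, the source of cysteine for glutathione, and its product pairs with CD98 as well. It was at 6.61 and 15.4 CPM in EV RV (279 and 1172 counts) and at 9.36 and 10.02 CPM in Tox RV (592 and 520 counts). The Tox RV libraries were close to each other and lay between the EV RV libraries, which differed by 1.22 on the log2 scale. The log2 fold change of -0.19 (SE 0.40, 95% interval -1.18 to 0.80, edgeR adjusted p = 0.935) was -0.68 without EV RV replicate 1 and 0.56 without EV RV replicate 2. Its transcript holds a stretch of 585 bases that is 92.5% identical to the tubulin gene *Tuba1b*, and shorter stretches like *Tuba1a* and *Tuba1c*, so its counts are uncertain. *Tuba1b* was at 597 and 848 CPM in EV RV against 610 and 908 CPM in Tox RV, and its part in the *Slc7a11* values was not tested. No other gene of the 10 had a copy of at least 90% identity over 200 bases, and none shared exon bases with another annotated gene.

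**Figure D3:**
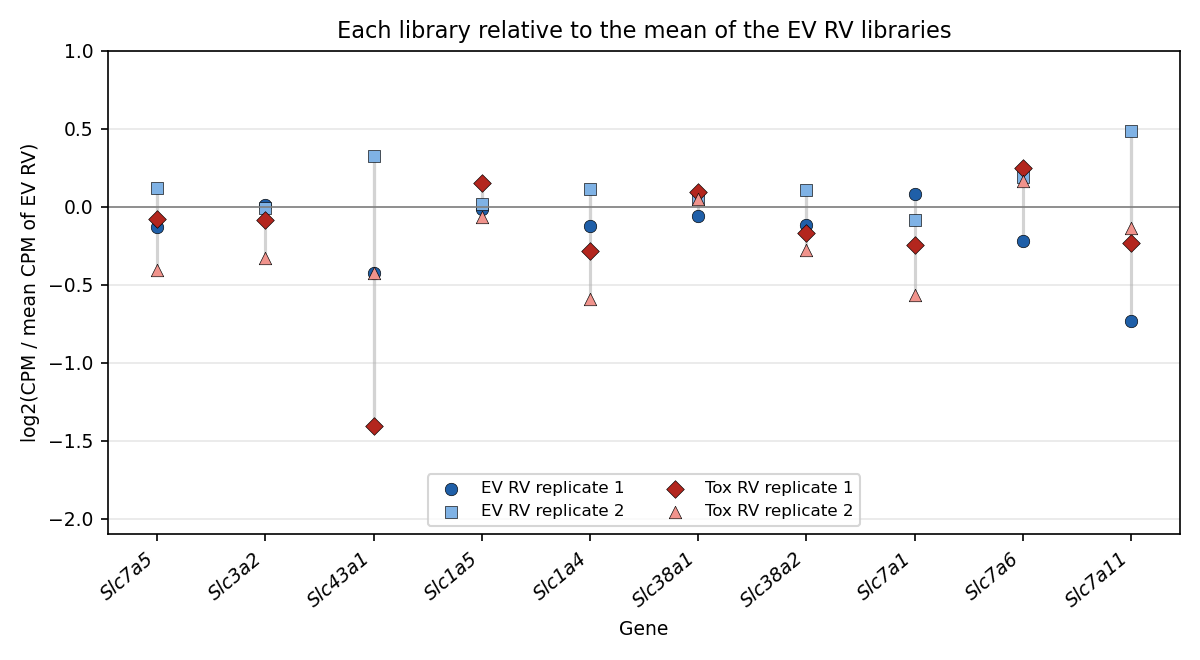
log2 of each library's CPM over the mean CPM of the EV RV libraries, for each transporter gene, with 1 symbol per library. Tox RV replicate 2 is the lowest library for 6 genes, and the EV RV replicates lie farthest apart for *Slc7a11*.

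The libraries of a group did not sit at one level over the set. Tox RV replicate 2 was the lowest of the 4 libraries for 6 of the 10 genes, as it was for 20.7% of all tested genes. Tox RV replicate 1 was above Tox RV replicate 2 for 8 of the 10, against 50.4% of all genes, and EV RV replicate 1 was above EV RV replicate 2 for 2 of the 10, against 50.3%. EV RV replicate 1 was the lowest library for 3 genes. For 4 genes the difference between the EV RV replicates exceeded the fitted difference between the groups. The shares of all genes for the counts of 3 and 4 were not computed. Summed over the 10 genes, the level was 657 and 666 TPM in EV RV against 629 and 547 TPM in Tox RV, or 662 ± 6.84 against 588 ± 58.2 TPM (SD, n = 2). The difference was -73.7 TPM, -32.5 TPM without Tox RV replicate 2 and -115 TPM without Tox RV replicate 1. Summed in CPM, the groups overlapped, at 1458 and 1555 in EV RV against 1495 and 1312 in Tox RV. The single values moved with the libraries as well. The log2 fold change of *Slc7a5* was -0.41 without Tox RV replicate 1, -0.36 without EV RV replicate 1, -0.10 without EV RV replicate 2 and -0.08 without Tox RV replicate 2. That of *Slc3a2* was -0.34 without Tox RV replicate 1 and -0.08 without Tox RV replicate 2. That of *Slc1a4* was -0.60 and -0.28 without these same libraries. *Slc38a2* was at -0.34 without EV RV replicate 1 and at -0.10 without EV RV replicate 2, and *Slc7a6* at 0.01 and 0.44. Each of these kept its sign.

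Ratios of TPM within a library compared genes that work together or alike. The ratio of *Slc7a5* to *Slc3a2* was 0.758 and 0.912 in EV RV against 0.836 and 0.790 in Tox RV. The Tox RV ratios lay inside the EV RV range, with a log2 difference of -0.033 (two-sided exact permutation p = 1, and 1 when adjusted over the 3 ratios). The ratio of *Slc1a5* to *Slc1a4* was 23.4 and 20.3 in EV RV against 29.3 and 31.4 in Tox RV. Both Tox RV ratios were higher, with a log2 difference of 0.48 (exact permutation p = 0.333, adjusted p = 0.5). The ratio of *Slc38a2* to *Slc38a1* was 0.956 and 1.02 in EV RV against 0.824 and 0.788 in Tox RV. Both Tox RV ratios were lower, with a log2 difference of -0.30 (exact permutation p = 0.333, adjusted p = 0.5). With 2 libraries against 2 the smallest p this exact permutation test can give is 0.333, so it cannot pass 0.05. A ratio shows unequal values of its 2 genes and not which of them differed.

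**Figure D4:**
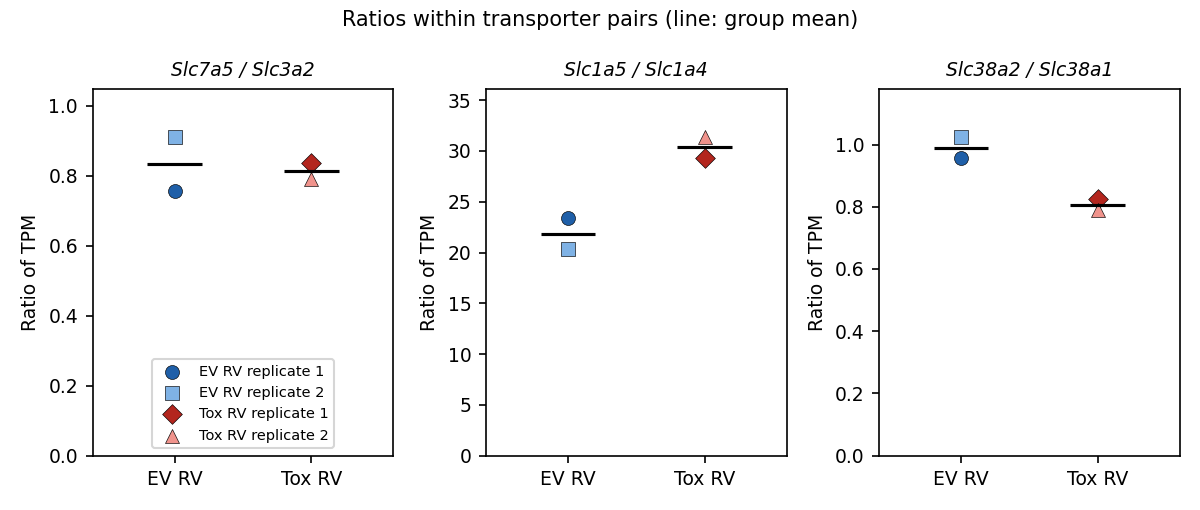
Ratio of TPM within each of 3 transporter pairs by library (vertical axes from 0), with the line at the group mean of 2 libraries. The groups overlap for *Slc7a5* over *Slc3a2* and are apart for *Slc1a5* over *Slc1a4* and for *Slc38a2* over *Slc38a1*.

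The genes whose values over the 4 libraries were most like those of *Slc7a5* were found by the root mean squared difference of log2 CPM, each gene centred on its mean, among 8512 genes with a mean of at least 10 CPM. They were *Slco4a1*, which encodes an organic anion transporter (0.0068), *Dnmt3b*, a DNA methyltransferase (0.036), and *Bend3* (0.044). Of the 10 transporters, *Slc38a2* ranked 17 by this measure, *Slc1a4* 39 and *Slc3a2* 43, while *Slc7a6* ranked 3678 and *Slc7a11* 7218. With 4 libraries this is a description of a shared profile, highest in EV RV replicate 2 and lowest in Tox RV replicate 2 for *Slc7a5*, *Slc38a2* and *Slc1a4*.

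Of 33 other amino acid transporters, most of them of the plasma membrane, 18 were tested. Of these, 0 passed the adjusted p of 0.05 in edgeR or DESeq2, and 1 had an unadjusted p below 0.05. Their median log2 fold change was -0.21, with 12 below 0. That 1 gene was *Slc6a9*, which encodes the glycine transporter GlyT1, at 15.8 and 19.6 CPM in EV RV against 11.8 and 9.50 CPM in Tox RV. Both Tox RV libraries were lower, and the log2 fold change was -0.74 (SE 0.22, edgeR adjusted p = 0.897). The most abundant were *Slc38a10*, at 139 and 134 CPM in EV RV against 152 and 145 CPM in Tox RV, and the taurine transporter *Slc6a6*, at 99.8 to 130.3 CPM over both groups. *Slc6a18*, a carrier known from the kidney, was at 1.71 CPM or less throughout. Of the transporters of lysosomes and mitochondria, 16 were tested, with 0 called, 0 at an unadjusted p below 0.05 and a median of -0.07. *Slc7a14*, a relative of the cationic carriers, was at 82.9 and 83.3 CPM in EV RV against 69.0 and 67.5 CPM in Tox RV, with replicates close together and groups apart (log2 fold change -0.28, SE 0.16, edgeR adjusted p = 0.897). *Slc25a44*, the mitochondrial carrier of branched-chain amino acids, was at 20.1 and 25.3 CPM in EV RV against 27.0 and 27.7 CPM in Tox RV. The mitochondrial serine carrier *Sfxn1* overlapped between groups, at 67.5 to 86.5 CPM.

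Downstream of the transporters, 33 genes through which mTORC1 senses amino acids were tested, with 0 called, 0 at an unadjusted p below 0.05 and a median of -0.06. The leucine sensor *Sesn2* was at 40.5 and 37.7 CPM in EV RV against 33.5 and 29.9 CPM in Tox RV (log2 fold change -0.30, SE 0.17, edgeR adjusted p = 0.897). *Lamtor3*, which belongs to the Ragulator complex that anchors mTORC1 to lysosomes, lay the other way, at 21.6 and 27.4 CPM in EV RV against 32.7 and 31.6 CPM in Tox RV (log2 fold change 0.39, SE 0.19, edgeR adjusted p = 0.897). The sestrin *Sesn3* was at 263 CPM in EV RV replicate 1 and at 117 to 161 CPM in the other libraries, and *Sec13*, of the GATOR2 complex, was lowest in that same library at 88.6 CPM against 133 to 145 CPM. Of 21 enzymes of glutamine, branched-chain amino acid and arginine metabolism, 21 were tested, 0 were called and 0 had an unadjusted p below 0.05, with a median of -0.05. Glutamate dehydrogenase, *Glud1*, was at 230 and 193 CPM in EV RV against 180 and 176 CPM in Tox RV. *Ass1*, which makes the precursor of arginine, was at 124 and 89.1 CPM in EV RV against 76.1 and 75.5 CPM in Tox RV (log2 fold change -0.49, SE 0.21, edgeR adjusted p = 0.897). *Nos2*, which uses arginine to make nitric oxide, had only 68 and 33 counts in EV RV against 23 and 3 counts in Tox RV.

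Of 13 genes of cystine use and glutathione, 13 were tested, 0 were called and 1 had an unadjusted p below 0.05, with a median of 0.14. That 1 was *Chac1*, a target of ATF4 that breaks down glutathione, at 8.75 and 10.8 CPM in EV RV against 7.03 and 5.88 CPM in Tox RV (log2 fold change -0.60, SE 0.23, edgeR adjusted p = 0.897). *Ggct*, which acts in the same degradation pathway, was higher in both Tox RV libraries, at 4.19 and 3.99 CPM against 2.13 and 2.995 CPM. Thioredoxin reductase *Txnrd1* was at 127 CPM in EV RV replicate 1 and at 211 to 257 CPM in the others, and thioredoxin *Txn1* was likewise lowest in EV RV replicate 1, at 164 CPM. Both had the same lowest and highest libraries as *Slc7a11*. Of 14 regulators of transporter genes, 14 were tested, 0 were called and 2 had an unadjusted p below 0.05, with a median of 0.02. *Myc* was at 226 and 166 CPM in EV RV against 147 and 117 CPM in Tox RV, both Tox RV libraries lower, with a log2 fold change of -0.57 (SE 0.23, edgeR adjusted p = 0.897). *Mycn* had 34 and 124 counts in EV RV against 14 and 31 counts in Tox RV (log2 fold change -1.60, SE 0.63, edgeR adjusted p = 0.897). *Atf4*, whose product binds the response element, overlapped between groups, at 204 to 319 CPM, and *Hif1a* lay at 1038 to 1078 CPM in all 4 libraries.

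**Figure D5:**
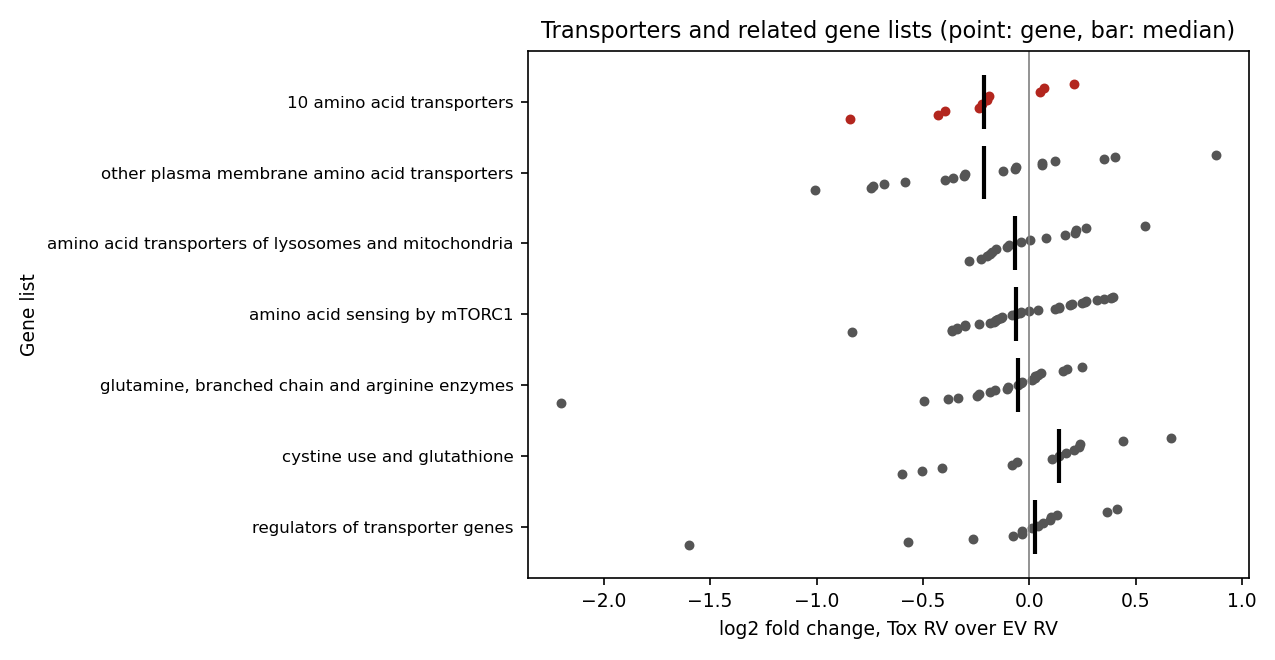
log2 fold change, Tox RV over EV RV, of each tested gene (points) and the median (bar) for the 10 transporters and 6 related gene lists. The medians run from -0.21 for both lists of transporters mostly of the plasma membrane to 0.14 for cystine use and glutathione. No gene shown passed an adjusted p of 0.05.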

How the data were processed

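The 4 RNA-seq libraries were assigned to EV RV or Tox RV from their labels. Per the paper's methods, the authors checked reads with FastQC, aligned them with bowtie1 to mm10 transcripts and quantified genes with RSEM, each library on its own. Strand use in counting is not given in the sources used here. The deposited expected counts are RSEM's fragment estimates, without normalization. The deposited TPM values are RSEM's shares of all transcripts, normalized for length and depth, and the deposited FPKM values, used only to recompute ratios, are its fragments normalized likewise. The authors' joint table of all libraries was not used here, because its columns, though named TPM, do not sum as TPM does.

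After rounding, expected counts entered edgeR 4.0.16 (R 4.3.3): filterByExpr (minimum count 10, 14143 genes kept), TMM scaling and glmQLFit with glmQLFTest for Tox RV against EV RV, without a block, over all genes. The common coefficient of biological variation was 0.232, and the median prior degrees of freedom were 3.77. Benjamini-Hochberg adjustment ran over all genes tested. DESeq2 1.42.0, the test the authors name, was an alternative. Intervals are at 95%. P-values measure only the spread between these libraries, which come from 2 mice a group. Ratios of TPM were compared by exact permutation of the 4 libraries. Other alternatives were median-of-ratios scaling, library totals, no filter, a block for the replicate number, limma 3.58.1 on log2(TPM + 1) and log2(TPM + 0.1) for genes with a mean of at least 1 TPM, leaving out *Rn45s*, and leaving out each library. The fits were tested on simulated data.

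The 10 transporters and the other lists were chosen with earlier results of these data known. Beside the 10, the genes named were *Tox*, *Rn45s*, *Slc7a7* and *Slc7a8*, the 2 most abundant and the 2 of lowest unadjusted p in each list, the 3 most like *Slc7a5*, and genes that overlap a member or share its symbol stem. A gene that this rule names is not reported here. The tubulin copies, the motifs and the light chain shares were chosen after values were seen. Gene positions are from GENCODE vM21 and promoters from RefSeq.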

Additional observations from a re-analysis of the deposited data

How the results depend on the processing

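In all 12 alternatives 0 of the 10 transporters were called, and the lowest adjusted p of any of them was 0.103 (*Slc7a6* without EV RV replicate 2, edgeR). Over all genes, where 0 were called, DESeq2 called 24, edgeR without the filter on low counts 22, and leaving out a library 1 to 600, the highest without EV RV replicate 2, then 23 without Tox RV replicate 2, 12 without Tox RV replicate 1 and 1 without EV RV replicate 1. With the replicate number as a block, 16 genes and none of the 10 were called. In that edgeR fit 1 of the 10 (*Slc43a1*) had an unadjusted p below 0.05, against 1232 of 14143 genes. The labels do not say that a number marks a shared mouse, and with 2 pairs the correlation of same-numbered deviations (0.302 over 14143 genes) does not settle the pairing. Of 120 single values of the 10 genes under an alternative, 114 kept their sign and side of the threshold. *Slc1a5* turned to -0.038 with limma on log2(TPM + 1) and -0.039 on log2(TPM + 0.1), and ran from -0.069 (without Tox RV replicate 1) to 0.15 when libraries were left out. *Slc38a1* turned to -0.0072 and -0.0073 with limma. The medians of all genes in these limma fits were -0.043 and -0.046. *Slc7a11* ran from -0.68 to 0.56 (without EV RV replicate 2). The log2 difference of the *Slc7a5* to *Slc3a2* ratio ran from -0.17 to 0.10 when libraries were left out, and was 0.0076 without Tox RV replicate 2. By library totals 3 of the 10 genes did not overlap between groups, where TMM gave 5. The share of all genes was not computed by library totals. The cause of these shifts was not tested. Depth limits *Slc43a1* most, with 104 to 416 counts per library.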

Other observations

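The light chains that pair with CD98 and passed the filter were *Slc7a5*, *Slc7a6*, *Slc7a11*, *Slc7a7* and *Slc7a8*, a grouping made after the values were seen. *Slc7a5* made up 73.1% and 70.7% of their summed TPM in EV RV against 67.3% and 63.4% in Tox RV, with both Tox RV libraries lower. *Slc7a6* made up 25.1% and 27.2% in EV RV against 30.9% and 34.5% in Tox RV, with both Tox RV libraries higher. These 2 genes made up nearly all of the sum, so a lower *Slc7a5* share goes with a higher *Slc7a6* share. The *Slc7a6* level itself overlapped between groups, at 31.83 and 40.26 TPM in EV RV against 40.56 and 38.35 TPM in Tox RV. The level of *Slc3a2* over the summed light chains was 0.964 in EV RV replicate 1 and 0.775 to 0.805 in the other 3 libraries. No test was run on these shares.

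The length RSEM assigned to a gene, weighted by its isoforms, varied between libraries by 1.11% for *Slc43a1*, 0.680% for *Slc38a1*, 0.253% for *Slc7a1* and 0.036% for *Slc3a2*, and not at all for the other 6 genes. *Slc7a6os*, which shares the symbol stem of *Slc7a6* but is no copy of it, was at 31.8 and 39.1 CPM in EV RV against 42.2 and 39.1 CPM in Tox RV (log2 fold change 0.20), with the lowest value in EV RV replicate 1, as for *Slc7a6*.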
